A study of Homo sapiens with 6 samples.

Results

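The clustered histone genes are the intron-poor genes, packed into arrays on chromosomes 6 and 1, that make the bulk of the linker histone H1 and of the core histones H2A, H2B, H3 and H4. They were taken from the deposited table by symbol: names beginning with H2AC, H2BC, H3C or H4C and a digit, and H1-1 to H1-5, without pseudogene names, of which 12 were left out. This gave 64 of the 59008 genes in the table, 54 on chromosome 6 and 10 on chromosome 1. There were 5 H1, 16 H2A, 17 H2B, 12 H3 and 14 H4 genes. Of the 64, 58 had a value above 0 in at least 1 library and 23 in all 6, and 6 (H2AC1, H2AC21, H2BC1, H4C6, H4C11 and H4C13) were listed at 0 throughout.

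RNA was sequenced from Hey and SKOV3, 2 established human ovarian cancer cell lines, in 3 states each, with 1 library per state. Parental cells were untreated. Polyploid giant cancer cells (PGCCs), very large cells that survive a failed mitosis, followed 500 nM of the microtubule drug paclitaxel for 16 hours and recovery. The treatment labels give 3 days of recovery for both lines, while the title of the SKOV3 PGCC library gives day 7. Daughter cells, which bud from PGCCs, had the same treatment and 30 days of recovery, and the daughter library of each line was labelled clone 1. Values are TPM, a transcript level corrected for transcript length and scaled to a fixed total within a library, but a TPM holds no amount of RNA per cell. How the RNA was selected before sequencing is not given in the sources used here, and a selection by poly(A) tail would favour some genes over others, so levels of different genes are set side by side only as the table lists them. With 1 library per state, no difference within a line has a replicate check, and fewer cells making a transcript and less of it per cell cannot be told apart.

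Histone supply is tied to DNA replication. The mRNAs of these genes are made in S phase, end in a conserved stem-loop in place of a poly(A) tail, and need stem-loop binding protein (SLBP) and the U7 small nuclear RNA for that end. They are destroyed when replication stops. Some of the genes can also give a polyadenylated mRNA, which is best known from differentiating and non-dividing cells, and replacement variants such as H3.3 are made outside S phase from ordinary polyadenylated mRNAs.

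All 64 genes were protein-coding in GENCODE release 44 (genome build GRCh38), and a 16-base stem-loop was found in each, 23 to 68 bases after the stop codon. A total of 51 had no spliced transcript in the annotation. The sequences below show the stem-loop, in capitals, with 5 bases on either side, for the genes that carried most of the signal and for H4 genes that differed between the lines. They are read from the GRCh38 genome on the gene's own strand, at chr6:26055739-26055764 (minus), chr6:27146361-27146386 (minus), chr6:26158582-26158607 (plus), chr6:26124664-26124689 (plus), chr1:149842218-149842243 (minus), chr6:27831173-27831198 (minus) and chr1:149860764-149860789 (minus), in the order given.
H1-2: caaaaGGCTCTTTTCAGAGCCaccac
H2BC12: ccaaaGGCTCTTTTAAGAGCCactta
H2BC5: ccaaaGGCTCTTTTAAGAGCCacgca
H2AC6: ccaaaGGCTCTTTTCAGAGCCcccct
H2AC18: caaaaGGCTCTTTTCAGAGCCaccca
H4C12: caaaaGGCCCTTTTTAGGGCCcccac
H4C15: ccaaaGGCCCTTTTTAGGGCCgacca
The 16 bases of H1-2, H2AC6 and H2AC18 were shared by 37 genes of the H1, H2A, H2B and H3 families. The form of H2BC12 and H2BC5 was found in 8 genes, among them H2BC4 and H2BC11. The H4 genes had a different closing stem, in a form shared by 9 genes and in the form of H4C12 and H4C15, which 4 genes held. The remaining 6 genes each had a form of their own.

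Promoter windows from RefSeq (GRCh38.p14) were matched by symbol for 59 of the 64 genes, and the 250 bases before the transcript start were searched on both strands for the letters CCAAT of the CAAT box, for the letters TATAAA of the TATA box, and for ATTTGCAT, the octamer known from H2B promoters. CCAAT lay in 84.7% of the members' windows against 33.0% of all 27305 promoters, TATAAA in 69.5% against 11.1%, and ATTTGCAT in 42.4% against 1.66%. CCAAT was in 3 of 12 H4 windows (25%, under the share of all promoters) and in every window of the other 4 families. The octamer letters were in 14 of 17 H2B windows, 11 of 15 H2A windows, and in none of the 5 H1, 10 H3 or 12 H4 windows. The windows below belong to 5 genes whose values the results turn on, with the searched letters in capitals where they occur on either strand. They lie at chr6:26056471-26056720 (minus), chr6:26123922-26124171 (plus), chr6:26157871-26158120 (plus), chr6:27132796-27133045 (minus) and chr6:27146859-27147108 (minus), in the order given.
H1-2: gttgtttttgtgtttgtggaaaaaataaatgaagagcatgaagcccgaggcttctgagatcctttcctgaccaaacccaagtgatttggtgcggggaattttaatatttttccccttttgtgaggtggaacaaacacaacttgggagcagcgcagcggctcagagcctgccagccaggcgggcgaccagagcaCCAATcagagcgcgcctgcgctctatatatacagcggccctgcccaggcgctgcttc
H2AC6: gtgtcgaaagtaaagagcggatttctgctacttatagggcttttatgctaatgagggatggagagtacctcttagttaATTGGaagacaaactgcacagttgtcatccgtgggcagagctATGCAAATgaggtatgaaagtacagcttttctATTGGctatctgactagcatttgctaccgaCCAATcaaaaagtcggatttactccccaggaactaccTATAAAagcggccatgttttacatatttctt
H2BC5: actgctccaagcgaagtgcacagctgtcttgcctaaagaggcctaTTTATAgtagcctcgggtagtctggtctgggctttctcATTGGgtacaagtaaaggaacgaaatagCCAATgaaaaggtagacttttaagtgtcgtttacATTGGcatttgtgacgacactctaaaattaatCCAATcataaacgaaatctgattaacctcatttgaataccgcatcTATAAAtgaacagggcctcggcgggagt
H2BC11: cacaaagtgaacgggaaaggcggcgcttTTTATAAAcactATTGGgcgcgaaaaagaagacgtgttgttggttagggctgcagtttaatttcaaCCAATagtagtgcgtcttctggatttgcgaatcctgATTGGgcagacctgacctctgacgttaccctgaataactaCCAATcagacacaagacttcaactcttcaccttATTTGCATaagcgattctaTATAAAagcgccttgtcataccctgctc
H2BC12: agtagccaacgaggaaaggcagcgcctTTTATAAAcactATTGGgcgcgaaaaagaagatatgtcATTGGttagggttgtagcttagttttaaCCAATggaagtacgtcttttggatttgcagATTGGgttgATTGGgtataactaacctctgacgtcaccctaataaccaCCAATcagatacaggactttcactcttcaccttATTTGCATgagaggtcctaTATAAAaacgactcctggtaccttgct
The H2BC12 window held 6 matches to CCAAT, that of H2BC11 held 4 and that of H1-2 held 1. Where TATAAA and its reverse complement overlap, as in the H2BC11 and H2BC12 windows, the capitals run together.

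The table showed from 19920 genes above 0 in Hey parental cells to 25370 in Hey PGCCs, where 38 and 49 members were above 0. In SKOV3 parental cells and PGCCs there were 22041 and 23449 genes, and 37 and 43 members, above 0. Column sums were 911825 to 920497 TPM, and read depth is not in the table. Mitochondrial genes took 2.64% of the Hey parental library, 12.3% of Hey PGCCs and 7.60% of Hey daughter cells, and 9.17%, 7.37% and 14.8% of the same SKOV3 libraries. Of 9 epithelial markers, keratin 8 was at 319 to 1052 TPM in all 6 libraries and PAX8 at 54.7 to 136 TPM. KRT7 was at 312 to 930 TPM and KRT18 at 220 to 672 TPM. EPCAM and KRT19 were low in Hey, at 0.37 to 1.43 TPM and 0 to 3.60 TPM. In SKOV3, EPCAM was at 68.8, 43.6 and 8.15 TPM in parental cells, PGCCs and daughter cells. WT1 and MUC16 were at most 4.10 and 1.59 TPM in any library. The leukocyte marker PTPRC was at 0 to 0.43 TPM. The fibroblast gene COL1A1 reached 16.3 TPM in SKOV3 daughter cells and was at 0.031 to 2.35 TPM elsewhere. The summed level of 14 markers of fibroblasts, leukocytes, endothelium and red cells was 79.2 to 109 TPM in Hey and 30.3 to 32.8 TPM in SKOV3, with CD68 and CDH5 the largest parts in Hey parental cells, at 46.3 and 48.5 TPM. Between 3 and 8 of the 14 were at 0 in a library, and CD3E and HBB were at 0 throughout. ERBB2, which is amplified in SKOV3, was at 1127 to 1778 TPM in SKOV3 and at 8.20 to 14.1 TPM in Hey.

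The clustered histone genes together were most abundant in PGCCs of both lines. Their summed level was 78.0 TPM in Hey parental cells, 319 TPM in Hey PGCCs and 101 TPM in Hey daughter cells. In SKOV3 it was 50.2 TPM in parental cells, 176 TPM in PGCCs and 78.8 TPM in daughter cells. PGCCs thus held 4.08 times the parental sum in Hey and 3.50 times in SKOV3, and 3.14 and 2.23 times the daughter sum. Daughter cells were close to their parents, at 1.30 times the parental sum in Hey and 1.57 times in SKOV3. Even in PGCCs the 64 genes made up 0.0349% of the Hey table and 0.0192% of the SKOV3 table.

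**Figure D1:**
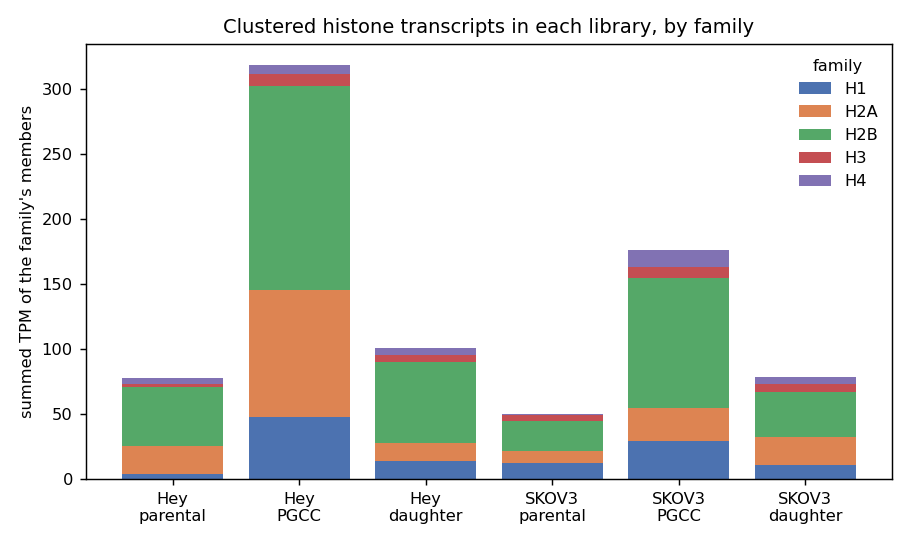
Summed TPM of the members of each histone family (stacked colours) in the 6 libraries, 1 library per bar. The PGCC bars reach 319 TPM in Hey and 176 TPM in SKOV3, and H2B is the largest part of every bar.

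The families did not share the signal evenly, and H2B, with 43.5% to 61.5% of the sum, was the largest in every library. The H2B sum was 45.0, 156 and 62.4 TPM in Hey parental cells, PGCCs and daughter cells, and 23.1, 99.7 and 34.3 TPM in the SKOV3 libraries in the same order. H2A stood at 21.6, 97.3 and 13.9 TPM in Hey and at 9.57, 25.2 and 21.4 TPM in SKOV3, so that the SKOV3 PGCC and daughter libraries differed little, by 1.18 times. The linker histone H1 sum was 4.46, 48.3 and 14.1 TPM in Hey and 12.4, 29.7 and 11.4 TPM in SKOV3. H1 was thus 10.8 times its parental level in Hey PGCCs and 2.39 times in SKOV3 PGCCs, and H1-2 alone stood at 46.9 TPM in Hey PGCCs. H3 and H4 were low in every library, at 2.65 to 9.62 TPM and 0.75 to 12.8 TPM. H4 was the family in which the lines differed most, with 4.36, 6.85 and 6.14 TPM in Hey and 0.75, 12.8 and 5.88 TPM in SKOV3.

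Differences between libraries were taken on the log2(TPM + 1) scale, which understates the change of low genes, and a gene was called when the difference reached 1, a 2-fold change on that scale. Between PGCCs and parental cells, 16 of 55 members above 0 in either Hey library (29.1%) were higher and 1 (1.82%) lower. Of 26322 genes, 5.77% were called higher and 3.15% lower. In SKOV3, 13 of 48 members (27.1%) were higher and 0 lower, against 6.7% of 25384 genes higher and 3.53% lower. The 55 members above 0 in either Hey library had a median difference of 0.37, beside 0.08 for all genes. In SKOV3 the median was 0.59, beside 0.04 for all genes. The same 7 members were higher in both lines: H1-2, H2AC6, H2AC17, H2AC18, H2BC5, H2BC11 and H2BC12. That is 7 of 45 members above 0 in both comparisons, where 0.652% of all genes were called higher in both lines and 0.579% lower, and no member was lower in both.

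PGCCs stood above both other libraries of their line for 33 of 56 members in Hey (58.9%, against 48% of all genes) and for 32 of 50 in SKOV3 (64%, against 30.5% of all genes). For 12 members both PGCC libraries exceeded all 4 parental and daughter libraries, which is 20.7% of the 58 members above 0 in any library, beside 4.48% of all genes. These were H1-2, H2AC17, H2BC3, H2BC4, H2BC5, H2BC6, H2BC9, H2BC11, H2BC12, H3C6, H3C13 and H4C12. No minimum level was set, and some of these lay near 0. In Hey and SKOV3 PGCCs, H2BC3 was at 0.15 and 0.17 TPM, H3C13 at 0.48 and 0.18 TPM, and H2BC6 at 0.53 and 0.41 TPM. H2BC3 and H3C13 were listed at 0 in the other 4 libraries. In none did both PGCC libraries lie below the others, which held for 2.4% of all genes.

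**Figure D2:**
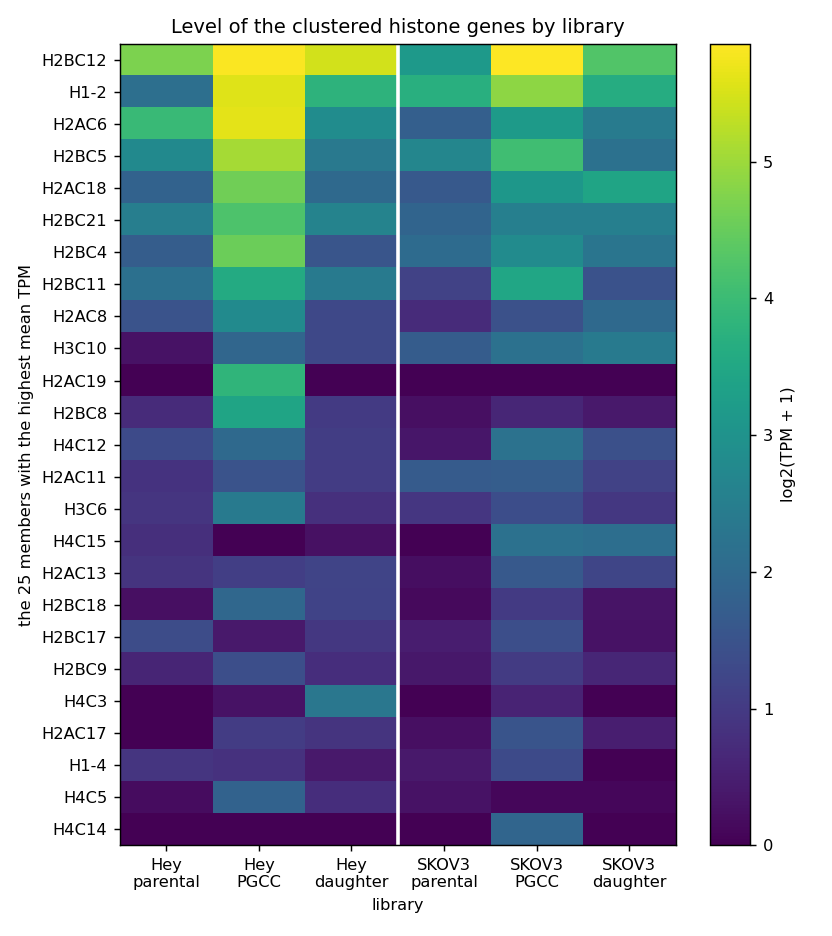
Level of the 25 members with the highest mean TPM (rows) in the 6 libraries (columns), as log2(TPM + 1), with a white line between Hey and SKOV3. The PGCC columns are the brightest of each line for H2BC12, H1-2, H2AC6 and H2BC5, while H2AC18 is brightest in SKOV3 in the daughter column.

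The most abundant member was H2BC12 (ENSG00000197903.8, chr6:27146361-27146855, minus strand), which encodes an H2B and whose single annotated transcript is 1 exon. It was at 25.03, 56.0 and 42.7 TPM in Hey parental cells, PGCCs and daughter cells, and at 8.07, 57.1 and 18.4 TPM in SKOV3. The PGCC levels of the lines were nearly equal, and both were above every other library. PGCCs exceeded parental cells by 1.13 (Hey) and 2.68 (SKOV3).

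H1-2 (ENSG00000187837.4, chr6:26055740-26056470, minus strand), a linker histone that binds the nucleosome at its entry and exit DNA, was second. It was at 3.41, 46.9 and 12.8 TPM in Hey and at 11.9, 28.2 and 11.4 TPM in SKOV3, in the same order of states. Its Hey difference from parental cells of 3.44 was the largest among members above 0 in both Hey libraries, and in SKOV3 it was 1.17. The other 4 H1 genes reached at most 1.51 TPM in any library.

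Among H2A genes, H2AC6 (ENSG00000180573.10, chr6:26124145-26139116, plus strand) was at 14.6, 48.2 and 6.25 TPM in Hey and at 2.40, 8.11 and 4.45 TPM in SKOV3. Its Hey parental level was above both the SKOV3 PGCC and the SKOV3 daughter level. PGCCs exceeded parental cells by 1.66 in Hey and 1.42 in SKOV3, and Hey daughter cells were lower than parental cells by 1.11. H2AC18 and H2AC19 on chromosome 1 have the same coding sequence, so reads can be assigned to either, and counts or calls that name H2AC18 alone are uncertain for that reason. Their summed level was 2.58, 36.5 and 3.02 TPM in Hey and 2.10, 7.59 and 9.74 TPM in SKOV3. PGCCs exceeded parental cells by 3.39 in Hey and 1.47 in SKOV3, but the SKOV3 daughter library was the highest of its line. The other pairs with the same coding sequence were H4C11 with H4C12, and H4C14 with H4C15.

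Among the other leading H2B genes, PGCCs differed from parental cells by more in Hey than in SKOV3, except for H2BC11. H2BC5 (chr6:26158122-26171349, plus strand) was at 5.85, 32.7 and 4.14 TPM in Hey and at 5.43, 15.8 and 3.53 TPM in SKOV3, differences from parental cells of 2.30 and 1.39. H2BC11 (chr6:27125897-27132795, minus strand) was at 3.45, 10.9 and 4.26 TPM in Hey and at 1.23, 9.98 and 1.79 TPM in SKOV3, differences of 1.42 and 2.30. In both genes the PGCC libraries were apart from the other 4. H2BC4 was at 2.31, 22.2 and 1.93 TPM in Hey, a difference of 2.81, and at 3.15, 6.11 and 3.88 TPM in SKOV3, where 0.78 did not reach the threshold. H2BC21 was at 4.68, 17.8 and 5.12 TPM in Hey, and at 2.70, 4.75 and 4.77 TPM in SKOV3, where PGCCs and daughter cells were level. H2BC8 went to 9.69 TPM in Hey PGCCs and stayed between 0.18 and 0.99 TPM in the other libraries.

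H3 genes were low, with H3C10 and H3C6 the leading members. H3C10 was at 0.22, 2.80 and 1.43 TPM in Hey and at 2.25, 3.55 and 4.26 TPM in SKOV3. H3C6 was at 0.88, 4.22 and 0.76 TPM in Hey and at 0.91, 1.62 and 0.93 TPM in SKOV3, with both PGCC libraries above the other 4. Both were called higher in Hey PGCCs against parental cells and neither in SKOV3, and the difference between the lines was not tested.

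H4 genes differed by line. H4C12 was at 1.48, 3.03 and 1.10 TPM in Hey and at 0.28, 3.59 and 1.69 TPM in SKOV3. The summed level of H4C14 and H4C15 was 0.72, 0 and 0.20 TPM in Hey and 0, 6.33 and 3.33 TPM in SKOV3, so these copies were seen in treated SKOV3 cells and stayed under 1 TPM elsewhere. H4C3 was at 3.98 TPM in Hey daughter cells and at 0 to 0.50 TPM in the other 5 libraries, and H4C5 was at 2.58 TPM in Hey PGCCs and at 0.070 to 0.69 TPM elsewhere.

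**Figure D3:**
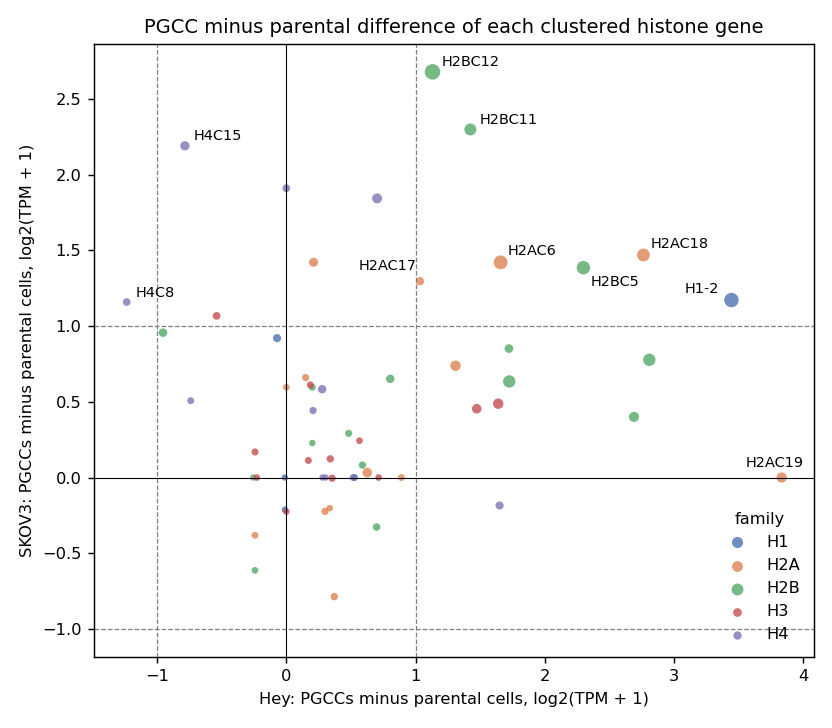
Difference between PGCCs and parental cells on the log2(TPM + 1) scale in Hey (horizontal) and SKOV3 (vertical) for each member above 0 in any library, coloured by family, with larger points for a higher mean TPM and dashed lines at the 2-fold threshold. Of the members past the threshold in both lines, H1-2 lies furthest to the right (3.44, 1.17) and H2BC12 highest (1.13, 2.68).

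The size of the difference in one line was set beside that in the other. Over the 17 members with a mean of at least 1 TPM, 15 had the higher level in the PGCC library of both lines, a share to set beside 25.2% of the 14988 genes at that level, and 1 went opposite ways. Of the 17, 4 (H2AC13, H2AC19, H2BC8 and H3C6) reached that mean only with the PGCC libraries counted in. With the mean taken over the 4 parental and daughter libraries, an alternative chosen after seeing the data, 12 of 13 members were higher in the PGCC library of both lines, beside 24.4% of 14858 genes. Over the 17 members, the Pearson correlation of the differences between the lines was -0.43, and over all 14988 genes it was -0.0049. The 17 include the 4 that passed only with the PGCC libraries counted in, a selection that itself bears on the correlation. It was not taken over the 13, so no conclusion is drawn from its sign. The genes compared share the libraries and the parental cells of their line, and they are not independent replicates.

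Taking the lines as repeats of one another, limma was fitted to all 14988 genes with a mean of at least 1 TPM, with cell line as a covariate and 2 residual degrees of freedom. None of the 17 members tested had a Benjamini-Hochberg adjusted p under 0.05 between PGCCs and parental cells, where 0.02% of all genes did (3 genes). At an unadjusted p under 0.05, 7 members were higher (H1-2, H2AC6, H2AC18, H2BC4, H2BC5, H2BC11 and H2BC12) and 0 lower, beside 174 higher and 235 lower genes in all. H1-2 had the largest limma estimate among these, 2.31 ± 0.58 (log2, SE, 2 libraries a state), with an adjusted p of 1.

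PGCCs and daughter cells were compared in the same way. In Hey, 12 of 51 members above 0 (23.5%) were higher in PGCCs and 1 (1.96%) lower, where 5.91% of genes were called higher and 6.16% lower. In SKOV3, 10 of 46 members (21.7%) were higher and 0 lower, where 6.17% of genes were higher and 10.6% lower. The SKOV3 difference also moved with GC content, as given below. H1-2, H2BC5 and H2BC11 were higher in both lines, 3 of 41 members above 0 in both, beside 0.766% of all genes, and no member was lower in both, beside 0.837%. H2BC5 had the largest limma estimate, 2.30 ± 0.44 (log2, SE, 2 libraries a state), with an adjusted p of 0.811, the lowest among members. No gene of the table passed in this limma contrast (0%), and 5 members had an unadjusted p under 0.05, all of them higher in PGCCs: H1-2, H2AC6, H2BC4, H2BC5 and H2BC11. Over all genes, 297 were higher and 461 lower at that p.

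Daughter cells were closer to parental cells. In Hey, 46 members were above 0 in either library. Of these, 2 were higher in daughter cells (H1-2 and H4C3) and 2 lower (H2AC6 and H4C8). Each is 4.35%, where 5.2% of genes were higher and 2.84% lower. In SKOV3, 6 of 41 members (14.6%) were higher (H2AC8, H2AC13, H2AC18, H2BC12, H4C12 and H4C15) and 0 lower. Over all genes, 11.5% were higher and 4.43% lower there. No member was called alike in Hey and SKOV3 daughter cells, beside 0.931% of all genes higher and 0.301% lower in both. In limma, 0 of 17 members and 0.0133% of all genes had an adjusted p under 0.05, and 0 members had an unadjusted p under 0.05, beside 364 higher and 144 lower genes in all.

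In SKOV3 the difference between PGCCs and parental cells moved with GC content: its Spearman correlation with the median GC content of a gene's transcripts was 0.72 over 13468 genes, and -0.047 in Hey. Members are GC-rich and short, with a median GC content of 56.2% and a median length of 496 bases, beside 48.8% and 1121 bases over those genes. With the trend in GC content and length removed, 13 of 17 members with a mean of at least 1 TPM were higher in Hey PGCCs (6.26% of all such genes). In SKOV3, 5 were (2.14% of all such genes): H2BC11 at 2.24, H2BC12 at 2.01, H2AC6 at 1.82, H4C15 at 1.75 and H2BC5 at 1.27. H1-2 fell short in SKOV3 at 0.70, as did H2AC18 at 0.50. With the mean taken over the parental and daughter libraries, 10 of 13 members were higher in Hey (5.72% of all such genes) and 5 of 13 in SKOV3 (1.96%). Between PGCCs and daughter cells the correlation with GC content was 0.45 in SKOV3 and -0.093 in Hey. With the trend removed there, 5 of 16 members were higher and 1 lower in SKOV3 PGCCs, with a median of 0.16. In Hey, 11 of 17 were higher and 0 lower, with a median of 1.64. Whether the trend is of the libraries or of the cells was not tested.

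Many neighbours share a promoter stretch and point away from each other. There were 13 such pairs with starts within 1000 bases, 170 to 979 bases apart. Both partners had a mean of at least 1 TPM in 3 pairs, 1 partner in 3 pairs and neither in 7. H2BC12, at 8.07 to 57.1 TPM, starts 251 bases from H2AC12, which was at 0 to 0.58 TPM, so the window printed above for H2BC12 covers nearly all of the stretch between the starts. H2BC4 and H2AC6 start 219 bases apart, and both were highest in Hey PGCCs, at 22.2 and 48.2 TPM. The 2 sides of the H2AC6 window thus differed by less than those of the H2BC12 window.

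A list of 8 members known to give polyadenylated mRNA (H1-2, H2AC6, H2BC4, H2BC5, H2BC11, H2BC12, H2BC21 and H4C8) held 61.1% to 77.8% of the summed member level in every library. Its sum was 60.7, 235 and 77.3 TPM in Hey and 34.9, 131 and 48.1 TPM in SKOV3. Of its 8 genes, 7 were higher and 1 lower in Hey PGCCs than in parental cells, with a median difference of 1.69, and 6 were higher and 0 lower in SKOV3, with a median of 1.28. The other 56 members summed to 17.3, 83.9 and 24.1 TPM in Hey and 15.3, 44.6 and 30.7 TPM in SKOV3. Their sum in PGCCs was 4.84 times the parental sum in Hey and 2.92 times in SKOV3, beside 3.87 and 3.76 times for the list. Of the 47 unlisted members above 0 in either Hey library, 9 were higher and 0 lower, with a median difference of 0.34. Of 40 in SKOV3, 7 were higher and 0 lower, with a median of 0.45. The unlisted share called higher was 19.1% in Hey and 17.5% in SKOV3. Over all genes, 5.77% were higher and 3.15% lower in Hey, and 6.7% and 3.53% in SKOV3. On the log2(TPM + 0.1) scale, the medians of listed and unlisted members were 1.81 and 1.49 in Hey and 1.62 and 1.27 in SKOV3. Over all genes the median on that scale was 0.30 in Hey and 0.11 in SKOV3. With the trend in GC content and length removed, only members with a mean of at least 1 TPM were kept. Then 7 of 7 listed genes (median 1.67) and 6 of 10 unlisted genes (median 1.33) were higher in Hey PGCCs. Of these 10, 4 reached that mean only with the PGCC libraries counted in. In SKOV3 PGCCs, 4 of 7 listed genes (median 1.27) and 1 of 9 unlisted genes (median 0.34) were higher. Against SKOV3 daughter cells at the same setting, 5 of 7 listed genes (median 1.07) were higher in PGCCs. Of the 9 unlisted genes, 0 were higher and 1 lower there, with a median of -0.10.

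The annotation gives another view of the 3′ end. In GENCODE, 14 members have a transcript that runs more than 100 bases past the stem-loop, by 430 to 37155 bases, and 10 of these end within 50 bases of the polyadenylation signal AATAAA or its common variant ATTAAA. The median of their mean levels was 1.43 TPM, and 8 of the 14 had a mean of at least 1 TPM. The 50 members without such a transcript had a median of 0.21 TPM, and 9 had a mean of at least 1 TPM, among them H2BC12, H1-2 and H2AC18. A TPM per gene does not tell which 3′ end the reads came from. The sum over the 14 genes was 4.15 times its parental level in Hey PGCCs and 3.19 times in SKOV3 PGCCs, and over the 50 it was 4.03 and 3.68 times.

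**Figure D4:**
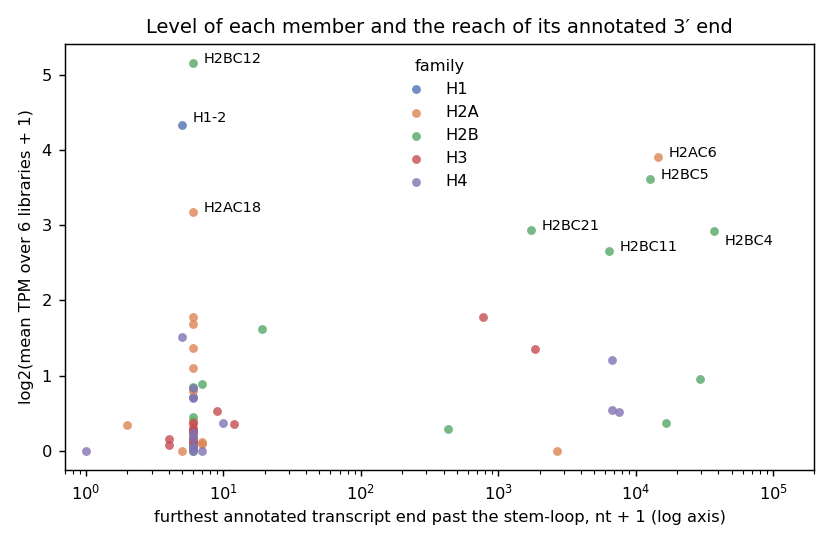
Mean level of each of the 64 members over 6 libraries, as log2(mean TPM + 1), against the distance from the stem-loop to the furthest annotated transcript end (bases + 1, log axis), coloured by family. Abundant members lie at both ends: H2BC12 and H1-2 end just after the stem-loop, while H2AC6, H2BC5 and H2BC4 have transcripts that run far past it.

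RNAs without a poly(A) tail were set beside the histone genes, since the selection of the RNA is not known. The 11 listed RNAs (among them RN7SL1, RN7SL2 and RN7SK, abundant non-coding RNAs of RNA polymerase III) summed to 393, 148 and 307 TPM in Hey parental cells, PGCCs and daughter cells. In SKOV3 they summed to 77.9, 186 and 210 TPM. Between PGCCs and parental cells the list was lower in Hey (1 gene higher and 4 lower, median -1.22). It was higher in SKOV3 (5 higher and 0 lower, median 1.29), while the histone genes were higher in both. Over all genes, 5.77% were higher and 3.15% lower in Hey, and 6.7% and 3.53% in SKOV3. RN7SL1 was at 153, 52.1 and 112 TPM in Hey and at 30.9, 85.0 and 102 TPM in SKOV3. In SKOV3 these RNAs and the histone genes were both higher in PGCCs than in parental cells. The sum of these RNAs was highest in SKOV3 daughter cells, while the histone sum was highest in PGCCs. Singly, 9 of the RNAs were above 0 in SKOV3 PGCCs or daughter cells. Of these, 6 had the higher level in PGCCs and 3 in daughter cells, with a median difference of 0.46. Their part in the result was not tested.

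Genes of DNA replication went the other way, more so in Hey. Of 28 S phase genes (the MCM helicase, its loaders, polymerase and nucleotide supply), 0 were higher and 26 lower in Hey PGCCs than in parental cells. The median difference was -1.70, and the lower share was 92.9% beside 3.15% of all genes. In SKOV3, 1 was higher (3.57%) and 3 lower (10.7%), beside 6.7% and 3.53% of all genes. The SKOV3 median was -0.50, and 20 of the 28 had a negative difference. CCNA2, the S phase and G2 cyclin, was at 63.8, 9.84 and 68.4 TPM in Hey and at 128, 48.4 and 90.3 TPM in SKOV3. RRM2, the ribonucleotide reductase subunit that limits nucleotide supply, was at 114, 22.1 and 115 TPM in Hey and at 168, 56.0 and 126 TPM in SKOV3. Both were lowest in PGCCs of each line, where the clustered histone sum was highest. They had the most negative SKOV3 differences of the list, at -1.39 and -1.57, and the list as a whole was mixed there. Against parental cells 8 of the 28 had a positive difference in SKOV3, among them MCM2 (0.53) and POLE (0.82). Between SKOV3 PGCCs and daughter cells 12 had a positive and 16 a negative difference, with a median of -0.07. PCNA, the sliding clamp, was not called in Hey (-0.52) and was 1 of the 3 lower genes in SKOV3, at 177 and 123 TPM in Hey parental cells and PGCCs and at 359 and 179 TPM in the same SKOV3 libraries.

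Of 21 factors of histone mRNA transcription, processing and decay, 0 were higher and 3 lower in Hey PGCCs (median -0.40). That is a lower share of 14.3% beside 3.15% of all genes. The 3 were CDK2 (-1.02), CCNE2 (-1.65) and E2F1 (-1.70), while NPAT (-0.47) and SLBP (-0.51) did not reach the threshold in Hey. In SKOV3, 1 was higher and 2 lower (median -0.24), a lower share of 9.52% beside 3.53%. SLBP was at 71.3, 49.8 and 77.9 TPM in Hey and at 115, 97.4 and 85.8 TPM in SKOV3, within the threshold in both. NPAT, the coactivator of histone gene transcription, was at 20.9 and 14.8 TPM in Hey parental cells and PGCCs and at 19.4 and 8.26 TPM in SKOV3, a difference of -1.14 there. LSM10, a protein of the U7 particle, was at 38.5 and 91.8 TPM in the SKOV3 libraries and at 24.2 and 23.99 TPM in Hey. CCNE2, an activator of the CDK2 kinase that acts on NPAT, was lower in PGCCs of both lines, by 1.65 in Hey and 1.48 in SKOV3.

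**Figure D5:**
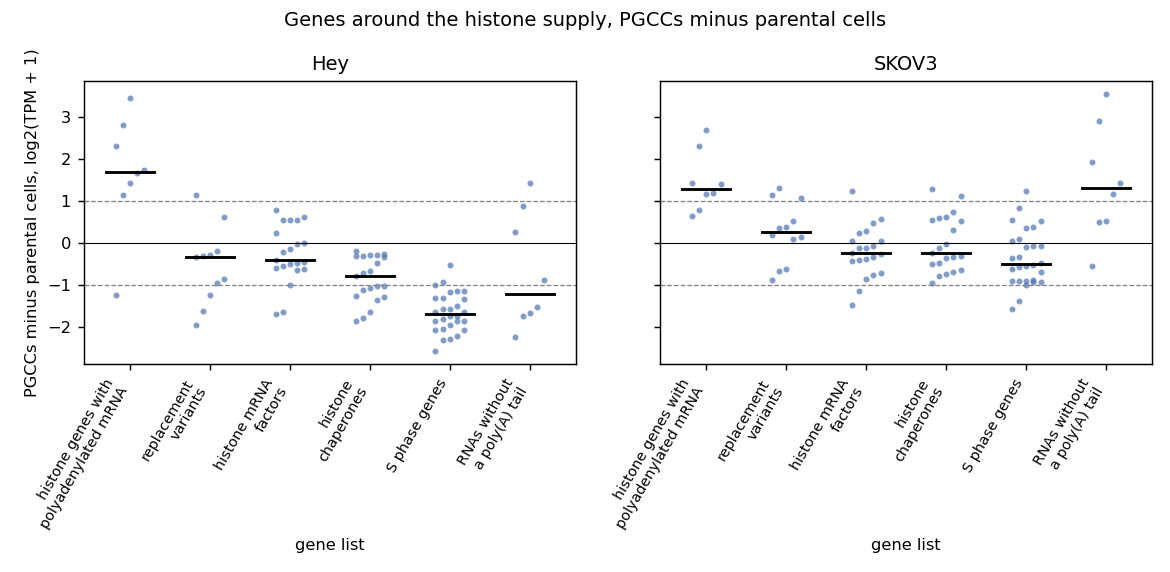
Difference between PGCCs and parental cells on the log2(TPM + 1) scale in Hey (left) and SKOV3 (right) for each gene of 6 lists above 0 in either library (points), with the list median (black line) and the 2-fold threshold (dashed). The histone genes with polyadenylated mRNA lie high in both lines (medians 1.69 and 1.28), and the S phase genes lie low in Hey (median -1.70) and nearer 0 in SKOV3 (median -0.50).

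Histone chaperones, which carry new histones to DNA, were, like the S phase genes, lower in Hey PGCCs. There 0 of 21 were higher and 10 lower (47.6%, beside 3.15% of all genes), with a median of -0.79. In SKOV3 PGCCs 2 were higher (9.52%, beside 6.7% of all genes) and 0 lower (beside 3.53%), with a median of -0.25. CHAF1A, the large subunit of the replication-coupled assembly factor, was at 23.3, 6.73 and 45.2 TPM in Hey and at 57.3, 56.1 and 38.2 TPM in SKOV3. HIRA, which deposits H3.3 outside replication, was at 12.8, 9.81 and 22.4 TPM in Hey and at 15.4, 24.1 and 17.4 TPM in SKOV3, and was not called in either PGCC comparison with parental cells.

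Replacement variants had a summed level of 1522 to 4242 TPM in this table, which cannot be set against the clustered genes with certainty because their mRNAs carry a poly(A) tail. Of 12 variant genes, 11 were above 0 in either Hey library, and 1 was higher (9.09%) and 3 lower (27.3%) in PGCCs (median -0.34). In SKOV3 PGCCs 3 were higher (25%) and 0 lower (median 0.27). Over all genes, 5.77% were higher and 3.15% lower in Hey, and 6.7% and 3.53% in SKOV3. H3-3B, an H3.3 gene, was at 597, 472 and 568 TPM in Hey and at 1386, 1792 and 803 TPM in SKOV3, within the threshold between PGCCs and parental cells. H2AZ1 was at 694, 292 and 708 TPM in Hey and at 1033, 650 and 762 TPM in SKOV3, with PGCCs the lowest of each line and a called difference, -1.24, in Hey. CENPA, the centromeric H3, was at 24.5, 5.57 and 33.7 TPM in Hey and at 42.7, 48.4 and 39.2 TPM in SKOV3.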

How the data were processed

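The authors trimmed reads with fastp and estimated levels with Salmon 0.14.1 on the hg38 transcriptome; the deposited table gives TPM per gene for 6 libraries, 1 per state and line. How transcripts were summed to genes and how RNA was selected are not given in the sources used here. Positions, GC content, transcript length and stem-loops came from GENCODE release 44 on GRCh38, promoter windows from RefSeq (GRCh38.p14), where a member with several windows had its first, or the nearest if the first lay over 500 bases from the GENCODE start. The stem-loop search took a 6-base stem and 4-base loop within 150 bases after the stop codon.

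Members were taken by symbol. The members and gene lists were chosen with earlier results of these data known. Within each line, states were compared as differences of log2(TPM + 1), called at 1, with no test because each state has 1 library. limma 3.58.1 (state and cell line, trended prior, Benjamini-Hochberg over 14988 genes with a mean of at least 1 TPM) used the lines as repeats. It was tried on simulated data in which both lines had the same change in PGCCs. That trial does not cover lines whose changes differ, and nothing here rests on it. Its p-values rest on how far the 2 lines depart from shared state differences, with a spread drawn in part from other genes.

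Named were the 25 members with the highest mean TPM, the 3 largest and 3 smallest differences per comparison among members with at least 5 TPM in either library, the list of polyadenylated genes and members called alike in both lines. H2BC3, H2BC6, H3C13 and further members called in daughter cells were named after their values were seen. So were the list genes described singly. Alternatives were a pseudocount of 0.1, a minimum mean of 1 TPM, median-ratio scaling, mitochondrial genes left out, a 3-fold threshold, and removal of a lowess trend (fraction 0.3, 2 passes) in GC content and length, and for limma also all genes above 0 and no trend; a minimum mean over the parental and daughter libraries was added after seeing the data. GC content was known for 13468 of the 14988 genes (89.9%) and for 17 of 17 members at that level. The table gives no counts per gene, so no counting error was set beside a value. Figures used matplotlib 3.10.9.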

Additional observations from a re-analysis of the deposited data

Results flagged for a closer look

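Of the members and listed genes, 9 were called in opposite directions in the 2 lines, and whether the lines differed was not tested, with 1 library per state. H4C8, an H4 gene, differed between PGCCs and parental cells by -1.23 in Hey and 1.16 in SKOV3 on the log2(TPM + 1) scale; it was at 1.35 TPM in Hey parental cells and 1.23 TPM in SKOV3 PGCCs and listed at 0 in the other 4 libraries. IPO4, an importin that carries H3 and H4 into the nucleus, differed by -1.03 in Hey and 1.28 in SKOV3. TONSL, which binds new histone H4 behind the fork, differed by -1.29 in Hey and 1.11 in SKOV3, and between PGCCs and daughter cells by -1.87 in Hey and 1.39 in SKOV3. CDT1, which loads the MCM helicase, differed between PGCCs and parental cells by -2.09 in Hey and 1.24 in SKOV3, and between PGCCs and daughter cells by -1.57 in Hey and 1.18 in SKOV3. H2AX, the variant that is phosphorylated at DNA breaks, differed between PGCCs and daughter cells by -1.98 in Hey and 1.08 in SKOV3. COL1A1, the fibroblast collagen gene, differed in the same comparison by 1.10 in Hey and -2.89 in SKOV3, at 1.21 TPM in Hey PGCCs and 16.3 TPM in SKOV3 daughter cells. Of the RNAs without a poly(A) tail, 3 differed in opposite directions between PGCCs and parental cells. RMRP, the RNA of RNase MRP, differed by -2.24 in Hey and 3.54 in SKOV3. RPPH1, the RNA of RNase P, differed by -1.67 in Hey and 1.92 in SKOV3. RMRP and RPPH1 were listed at 0 in SKOV3 parental cells. RN7SL1, the signal recognition particle RNA, differed by -1.54 in Hey and 1.43 in SKOV3.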

How the results depend on the processing

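Counts of called members depended most on the pseudocount. With a pseudocount of 0.1, members higher and lower numbered 37 and 8 (Hey) and 29 and 7 (SKOV3) between PGCCs and parental cells. They numbered 14 and 13 (Hey) and 10 and 11 (SKOV3) between daughter and parental cells, and 32 and 6 (Hey) and 23 and 4 (SKOV3) between PGCCs and daughter cells. The median over all genes at that pseudocount was 0.30 (Hey) and 0.11 (SKOV3), 0.13 and 0.28, and 0.22 and -0.19, in the same order of comparisons. For most settings in this paragraph the share of all genes called is not given, so these counts describe the members alone. At 3-fold, 5 members were higher in SKOV3 PGCCs than in parental cells, 2 in SKOV3 daughter cells than in parental cells and 4 in SKOV3 PGCCs than in daughter cells, while 0 were lower in Hey PGCCs or Hey daughter cells than in parental cells. With a mean of at least 1 TPM, 0 members were lower in Hey PGCCs than in parental or daughter cells, 1 was higher and 1 lower in Hey daughter than parental cells, and 4 were higher in SKOV3 PGCCs than daughter cells. Median-ratio scaling gave 2 members lower in Hey PGCCs and 3 higher in SKOV3 daughter cells than in parental cells, and leaving out mitochondrial genes gave 4 higher in Hey daughter cells. With the trend in GC content and length removed, 0 were lower in Hey PGCCs than in parental or daughter cells, 5 were higher in SKOV3 PGCCs than in parental cells, 1 was higher and 1 lower in Hey daughter cells, 3 were higher in SKOV3 daughter cells, and 5 were higher and 1 lower in SKOV3 PGCCs than in daughter cells. With the mean of at least 1 TPM taken over the parental and daughter libraries, chosen after seeing the data, 10 members were higher and 0 lower in Hey PGCCs and 8 higher in SKOV3 PGCCs than in parental cells. At that setting 6.77% of all genes were higher in Hey and 9.26% in SKOV3. The cause was not tested, beyond the fewer genes that a higher threshold or minimum leaves. The other 52 alternative counts, the limma ones at 0 among them, stayed within 1.5 times the reported value. Among single genes, 666 alternative values kept direction and side of the threshold, 36 newly passed it and 12 no longer did. No value changed direction past the threshold. The limma comparisons were already paired within cell line; beyond that, no paired analysis was possible because each group has 1 library and so shares fewer than 2 replicate numbers with any other. Leaving out a library leaves a line without that state.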

Other observations

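The 12 clustered histone pseudogenes left out by name summed to 1.47, 11.9 and 3.81 TPM in Hey parental cells, PGCCs and daughter cells, and to 6.82, 6.06 and 10.0 TPM in the same SKOV3 libraries. H2BC19P and H2BC20P carried most of this. H2BC20P was at 0.86, 4.24 and 1.75 TPM in Hey and at 3.47, 2.66 and 5.61 TPM in SKOV3, so that it was lowest in SKOV3 in the PGCC library. H2AC9P was at 3.54 TPM in Hey PGCCs and listed at 0 in the other 5 libraries. Reads from a pseudogene and from the gene it copies may be hard to tell apart.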
